A study of Mus musculus with 18 samples.

Results

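Secreted signalling molecules, their receptors and binding proteins, and genes of innate immunity were examined in fibroblasts and in the pluripotent cells made from them. The genes were taken from the authors' list of probe sets at least 10-fold lower than in mouse embryonic fibroblasts (MEFs) in all other arrays. A probe set was kept where its gene symbol began with a prefix of such a family, for example Cxcl, Il plus a digit, Igf, Tgf, Wnt or Osmr. This gave 69 of the 471 probe sets of the list, for 44 of its 333 gene symbols. Of the 40 prefixes, 26 had a member and 14 had none, among them Ccl, Vegf, Csf, Lif, H2- and Oas. The table of all 45037 probe sets carries no symbols, so members of these families that fell short of 10-fold in any array were not analysed here. A further 14 probe sets met the limit but are not in the list, and their families are not known.

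RNA was measured on 18 arrays. MEFs (3 samples) were isolated from mid-gestation mouse embryos that carried the reverse tetracycline transactivator rtTA*M2 at ROSA26 and a Pou5f1 reporter allele. Induced pluripotent stem cells (iPSCs) were made from such MEFs with PiggyBac transposons that express the transfected genes under doxycycline (1.5 μg/ml for 21 days), on feeder cells. OSKM clones (n = 4) received Oct4, Sox2, Klf4 and c-Myc, OE + EpEX clones (n = 4) received Oct4 and EpCAM, and KE + EpEX clones (n = 4) received Klf4 and EpCAM, and both of the latter were treated with EpEX, the extracellular domain of the adhesion protein EpCAM. Mouse embryonic stem cell (mESC) clones (n = 3) carry the same strain entry in the labels as the MEFs and received no transfected genes. The MEF samples are labelled as biological replicates, but GEO's text on the design speaks of 1 primary culture, so the spread between them may be technical. Fibroblast markers had a median over 14 probe sets of 5.30, 5.88 and 6.03 in MEF samples 1 to 3. In the other 15 arrays it was -0.70 to 1.64. Pluripotency markers had a median over 11 probe sets of -0.05 to 0.26 in those 15 arrays and -7.94 to -7.42 in MEFs. Symbols were available only in the authors' lists of probe sets lower or higher than MEFs, so both marker sets came from those lists. Their separation was therefore fixed by the choice and does not test the identity of the cells. All values are the deposited log2 values, in which 0 is the median of a probe set over the 18 arrays. They allow a probe set to be compared between arrays, but not 1 gene's level with another's.

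Fibroblasts are a main source of the signals that shape connective tissue. They secrete chemokines, which draw in leukocytes, growth factors such as FGF7, which act on epithelium, and latent TGF-β, which is stored in the matrix with LTBP proteins. Many of these signals are released together with a soluble inhibitor or a binding protein, as with Wnt ligands and SFRP or DKK proteins, BMPs and Gremlin, IGF1 and the IGFBPs, and IL-1 and its receptor antagonist. The loss of fibroblast genes is an early step of reprogramming to pluripotency.

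Promoters of 5 members are shown because the results below turn on their genes. Cxcl1, Ptx3 and Osmr were high in the same iPSC arrays, Cxcl15 had the largest difference between MEF samples, and Sfrp2 differed most between iPSCs and mESCs. The windows run from 250 bases before to 50 bases after the start in RefSeq (GRCm38.p6), 5′ to 3′ on the gene's strand, and capitals mark a match to a searched motif.
Cxcl1 (chr5:90890995-90891294, plus strand, NF-κB match): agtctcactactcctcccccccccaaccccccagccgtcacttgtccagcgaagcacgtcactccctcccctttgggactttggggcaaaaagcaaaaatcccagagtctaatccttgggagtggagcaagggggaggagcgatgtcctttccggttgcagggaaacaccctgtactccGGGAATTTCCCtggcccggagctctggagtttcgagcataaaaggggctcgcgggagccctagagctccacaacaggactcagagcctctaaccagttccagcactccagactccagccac
Ptx3 (chr3:66219637-66219936, plus strand, NF-κB match): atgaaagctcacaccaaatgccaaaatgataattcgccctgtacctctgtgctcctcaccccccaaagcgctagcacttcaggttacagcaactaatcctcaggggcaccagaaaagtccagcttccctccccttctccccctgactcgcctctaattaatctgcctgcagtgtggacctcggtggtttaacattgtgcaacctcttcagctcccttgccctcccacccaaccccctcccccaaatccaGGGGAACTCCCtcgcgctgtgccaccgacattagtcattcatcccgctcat
Osmr (chr15:6874264-6874563, minus strand, AP-1 match): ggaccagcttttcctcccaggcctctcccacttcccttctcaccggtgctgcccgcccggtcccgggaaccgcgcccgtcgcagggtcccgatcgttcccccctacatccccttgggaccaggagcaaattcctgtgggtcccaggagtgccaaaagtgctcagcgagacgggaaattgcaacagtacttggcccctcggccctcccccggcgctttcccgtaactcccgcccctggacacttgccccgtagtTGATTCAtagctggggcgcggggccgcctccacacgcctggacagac
Cxcl15 (chr5:90794284-90794583, plus strand, TATA box match): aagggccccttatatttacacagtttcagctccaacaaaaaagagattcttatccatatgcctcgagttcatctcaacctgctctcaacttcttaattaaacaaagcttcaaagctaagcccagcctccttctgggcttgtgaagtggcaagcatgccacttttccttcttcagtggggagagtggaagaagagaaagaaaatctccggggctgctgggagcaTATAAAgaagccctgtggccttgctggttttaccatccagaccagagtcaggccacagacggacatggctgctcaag
Sfrp2 (chr3:83766071-83766370, plus strand, NF-κB match): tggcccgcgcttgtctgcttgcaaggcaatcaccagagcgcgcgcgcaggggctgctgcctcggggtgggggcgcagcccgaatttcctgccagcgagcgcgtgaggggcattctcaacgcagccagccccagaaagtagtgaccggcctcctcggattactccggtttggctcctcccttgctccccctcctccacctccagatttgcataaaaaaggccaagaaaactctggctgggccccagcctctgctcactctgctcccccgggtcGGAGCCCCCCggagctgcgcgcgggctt

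RefSeq windows were matched for 33 of the 41 members whose symbol names a single gene, with 42 windows in all, and 7 motifs were searched on both strands. The NF-κB consensus was found in 5 of 42 windows (11.9%), against 8.46% of all 32851 windows. The genes that held it were C130021I20Rik, Cxcl1, Il1r1, Ptx3 and Sfrp2, and in Cxcl1 and in Ptx3 a pair of matches overlapped. The TATA box, searched as TATAAA, was found in 7 windows (16.7%, against 13.6% of all windows). The AP-1 motif, whose letters are TGANTCA, was found in 4 windows (9.52% against 7.81%), those of Igf1, Il1rn, Ltbp3 and Osmr. The TEAD motif was written as GGAATG, and 5 windows held it (11.9% against 14.7%). For STAT factors the letters were TTCNNNGAA, found in 1 window (2.38% against 8.30%), and for the cyclic AMP response element they were TGACGTCA, also found in 1 window (2.38% against 1.79%). The SRF CArG box was found in 0 windows, against 1.63% of all windows. These shares of members were within a few windows of those of all promoters. In Cxcl1 the matches lay between 71 and 61 bases before the start, and in Cxcl15 the TATA box lay 27 to 22 bases before it.

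The MEF mean of each member was at least 10-fold above every pluripotent array, as the list requires. These differences chose the members and are given without a test. Over the 69 members, the MEF mean lay a median of 5.04 log2 units above the mean of the 15 other arrays, or 32.8-fold, with a range of 11.9-fold to 209-fold. The median was 61.1-fold without MEF sample 1, 25-fold without sample 2 and 22.3-fold without sample 3. After quantile normalization the medians against the 4 groups were 1.54 to 2.09 log2 units. In the deposited values they were 5.07 against mESC, 4.90 against OE + EpEX, 4.97 against KE + EpEX and 5.25 against OSKM. The member nearest the limit was Bmpr1b, a BMP receptor, at 10.05-fold below the MEF mean in OSKM clone 1, followed by Igfbp7 at 10.1-fold in KE + EpEX clone 1. The nearest probe set outside the limit reached 9.997-fold and has no symbol in the files. In RNA from whole cultures, fewer cells of a type and less RNA per cell cannot be told apart.

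**Figure D1:**
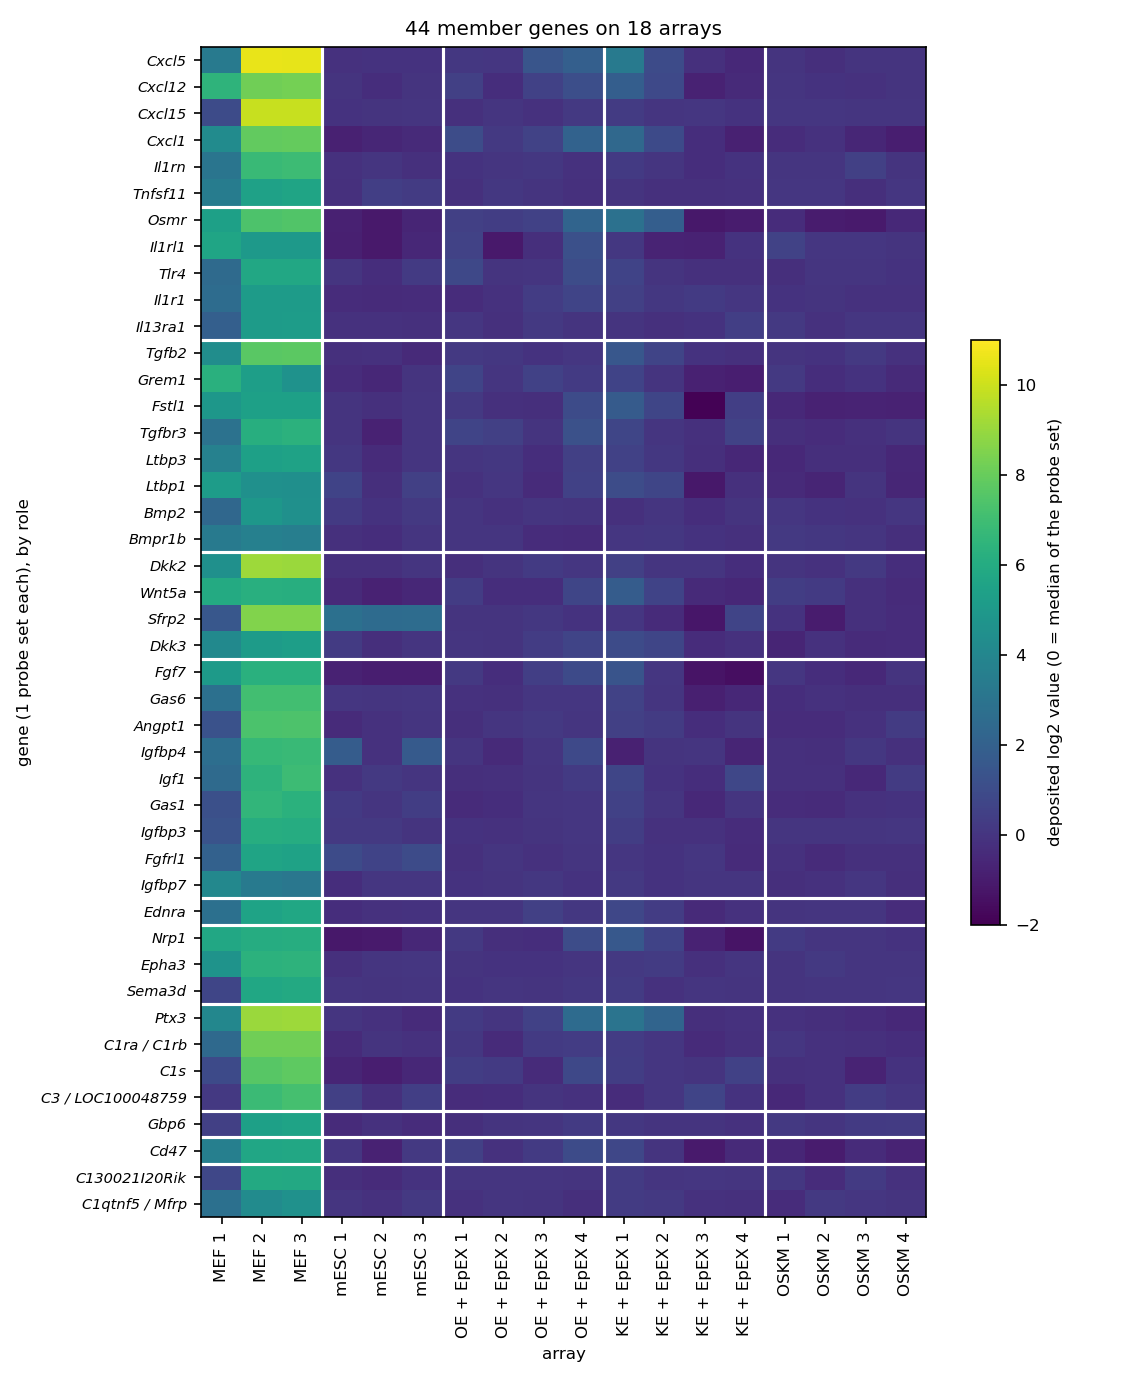
Deposited log2 values (colour; 0 is the median of a probe set over 18 arrays) of the 44 member genes, 1 probe set per gene, in rows ordered by role, with arrays in columns. MEF samples 2 and 3 are the brightest columns, MEF sample 1 is dimmer for most genes, and Sfrp2 is the row in which all 3 mESC clones stand out, at 2.55 to 2.78.

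Chemokines and cytokines comprised 6 genes (11 probe sets). Cxcl5, a neutrophil chemokine, had the highest difference of all members: it was 3.30, 10.58 and 10.53 in MEF samples 1 to 3 and -0.53 to 3.33 in the other arrays, a 209-fold difference of means. Cxcl12, which binds CXCR4 and guides stem and immune cells, was 6.47, 8.20 and 8.26 in MEFs and -0.78 to 1.86 elsewhere, or 177-fold. The lowest in this group was Tnfsf11 (RANKL, the osteoclast differentiation factor), with 3.46, 5.42 and 5.61 in MEFs and -0.27 to 0.41 elsewhere, or 29.2-fold. The group also held Cxcl1, another neutrophil chemokine, Il1rn, the IL-1 receptor antagonist, and a gene listed under the older symbol Il8, which RefSeq gives as a synonym of Cxcl15.

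Cytokine and innate receptors comprised 5 genes (7 probe sets). Osmr, the oncostatin M receptor, was 5.37, 7.36 and 7.47 in MEFs and 103-fold above the mean of the other arrays. Il1rl1, the receptor of IL-33, was 5.63, 4.98 and 5.03, or 42.4-fold, and was highest in MEF sample 1. Il13ra1, a subunit of the IL-13 receptor, was 1.94, 5.13 and 5.19, or 17.2-fold. Il1r1, the IL-1 receptor, and Tlr4, which senses bacterial lipopolysaccharide, completed the group.

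The TGF-β superfamily comprised 8 genes (12 probe sets). Tgfb2, a TGF-β ligand, was 4.36, 7.68 and 7.74 in MEFs and -0.46 to 1.52 elsewhere, or 91.8-fold. Grem1, a secreted BMP antagonist, was 6.26, 5.31 and 4.61 in MEFs, or 44.8-fold, and Bmpr1b was 3.30, 3.64 and 3.56, or 12-fold. Ligands (Tgfb2, Bmp2), receptors (Bmpr1b, and Tgfbr3, a co-receptor), antagonists (Grem1) and the storage proteins Ltbp1 and Ltbp3 were thus all represented.

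Wnt genes comprised the ligand Wnt5a, which acts mostly outside the β-catenin pathway, and 3 secreted modulators. Dkk2 was 4.54, 9.09 and 9.05 in MEFs and -0.28 to 0.47 elsewhere, or 193-fold. Wnt5a was 5.93, 6.18 and 6.15, or 67.8-fold, and was nearly level over the MEF samples at this probe set. Its other probe sets were not level and moved in opposite directions, at 5.39, 4.95 and 4.74 and at 3.50, 4.38 and 4.54. Dkk3 was 4.17, 5.13 and 5.31, or 28.5-fold. Sfrp2, which binds Wnt proteins, is described with the comparisons below.

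Growth factors and binding proteins comprised 9 genes (15 probe sets). Fgf7, the keratinocyte growth factor, was 5.08, 6.26 and 6.25 in MEFs and -1.5 to 1.39 elsewhere, or 68.4-fold. Gas6, a ligand of the receptor AXL, was 2.78, 7.07 and 7.05, or 54.3-fold. Igfbp7 was 4.04, 3.36 and 3.13, or 11.9-fold, the smallest mean difference of all members. Igf1, Igfbp3, Igfbp4, Angpt1 (a ligand of the endothelial receptor TIE2), Gas1 and the FGF-binding receptor Fgfrl1, which lacks a kinase domain, lay between them.

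Guidance genes were Nrp1, a co-receptor of semaphorins and VEGF (5.80, 6.05 and 6.08 in MEFs, 68.8-fold), Epha3, an ephrin receptor (4.68, 6.37 and 6.43, 56.8-fold), and Sema3d (0.73, 5.76 and 5.90, 17.5-fold). Ptx3, a pentraxin that binds microbes and complement, was 4.01, 9.04 and 9.11, or 126-fold. The complement proteases C1ra///C1rb (2.44, 8.20 and 8.16, 81.2-fold) and C1s, and a probe set listed for C3///LOC100048759 (0.18, 6.84 and 7.17, 26.8-fold), made up the rest of that group. Single genes stood for endothelin signalling (Ednra, 25.8-fold), interferon-induced GTPases (Gbp6, 14.3-fold) and surface antigens (Cd47, the signal that restrains phagocytosis, 37.4-fold). A RIKEN transcript, C130021I20Rik, and C1qtnf5///Mfrp were caught by the prefix C1 and belong to none of these families.

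For 17 genes 2 or more probe sets were members, and they differed in size. The 4 probe sets of Tgfb2 lay 4.02 to 6.52 log2 units above the other arrays, the 3 of Wnt5a 4.18 to 6.08, and the 2 of Cxcl15 5.42 and 6.92. The 3 probe sets of Nrp1 lay closer together, at 5.46 to 6.10.

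The MEF samples did not hold these genes at the same level. MEF samples 2 and 3 differed by a median of 0.09 log2 units over the members and by at most 0.69. MEF sample 1 differed from their mean by a median of -3.23. It was lower by at least 1 log2 unit for 56 of 69 members (81.2%), against 69.7% of the other probe sets of the list, and higher for 5. Over all probe sets the median difference was 0.05.

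The largest gaps were in Cxcl15, Cxcl5, Sfrp2 and the probe set for C3///LOC100048759. Cxcl15 was 0.97 in MEF sample 1 and 9.89 and 9.91 in samples 2 and 3, and its other probe set was 0.08 against 8.02 and 7.90. Sfrp2 was 1.55 against 8.56 and 8.55, so that MEF sample 1 lay below all 3 mESC clones. The probe set for C3///LOC100048759 was 0.18 against 6.84 and 7.17, within the range of the pluripotent arrays. Cxcl5, at 3.30 in MEF sample 1, lay just under KE + EpEX clone 1 at 3.33. With the second probe set of Cxcl15 these were the 4 members for which MEF sample 1 was below the highest of the 15 other arrays.

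Other members were as high or higher in MEF sample 1. These were Grem1 (by 1.30), Igfbp7 (0.80), Ltbp1 (0.69), Il1rl1 (0.62) and one probe set of Wnt5a (0.54). The fibroblast markers had a median gap of -1.04 and ranged from -4.28 to 1.50, and Col1a1 was 5.49, 5.19 and 5.15. With MEF sample 1 alone as the reference, 14 of 69 members were at least 10-fold above all 15 arrays, against 68 with sample 2 and 68 with sample 3. The part that culture, passage or the array played in this was not tested.

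**Figure D2:**
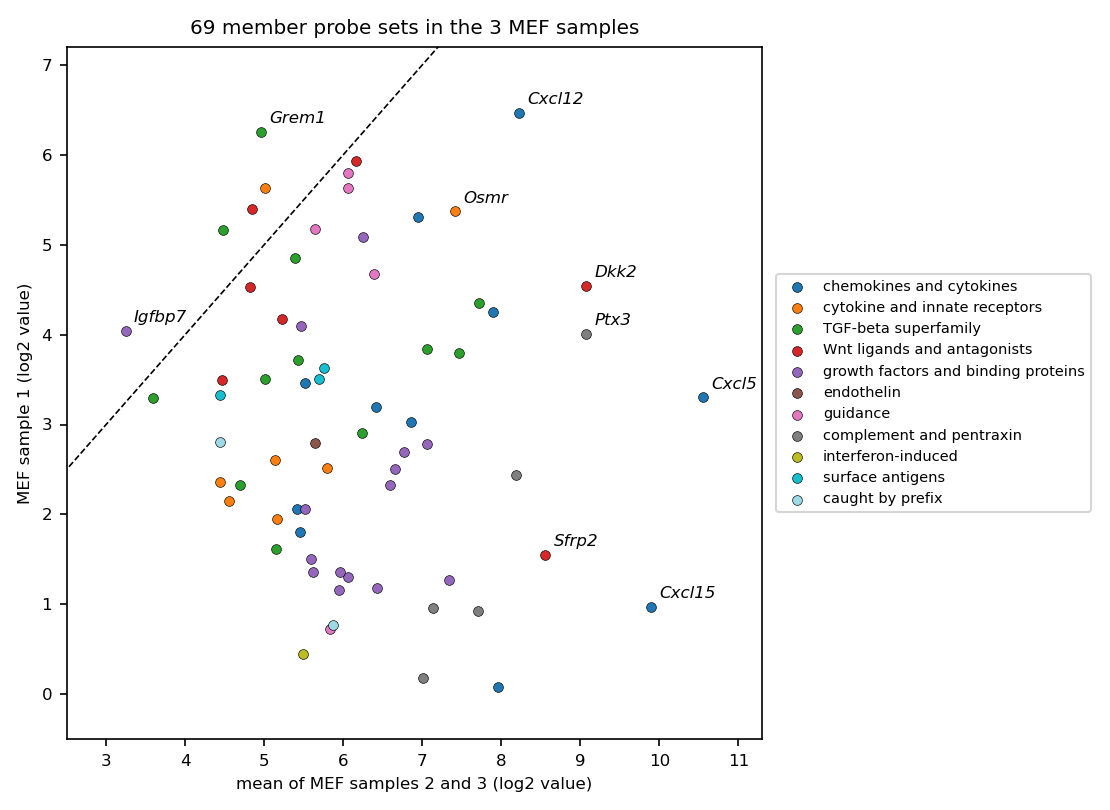
Log2 value in MEF sample 1 (vertical) against the mean of MEF samples 2 and 3 (horizontal) for the 69 member probe sets, coloured by role, with the line of equality dashed. Cxcl15, Cxcl5 and Sfrp2 lie far under the line, whereas Grem1 and Igfbp7 lie above it.

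Whether the iPSCs carried these genes at the level of mESCs was tested within the 15 pluripotent arrays with limma, with p-values adjusted over all 45037 probe sets. A call needed an adjusted p under 0.05 and a change of 1 log2 unit or more. In OE + EpEX against mESC 2 of 69 members were called, where 3.43% of all probe sets were. In KE + EpEX against mESC 2 were called (3.89% of all), and in OSKM against mESC 3 (3.73% of all). With the adjusted p alone the members numbered 8 (14.2% of all), 8 (16.7% of all) and 6 (17.0% of all). As shares, 2.9%, 2.9% and 4.35% of members were called, and 11.6%, 11.6% and 8.7% passed the adjusted p alone. With the adjusted p alone the share was below that of all probe sets in each comparison, but the called share in OSKM was above it. These counts are small, and no test compared the shares. Every member had to stay 10-fold under the MEF mean in every array, which bounds how far these arrays could differ. The median difference over the members was 0.23 for OE + EpEX clones, 0.15 for KE + EpEX clones and 0.02 for OSKM clones, against -0.05, -0.02 and -0.02 over all probe sets. Without KE + EpEX clone 1 the KE + EpEX median was 0.02.

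Sfrp2 was lower in all 3 iPSC groups than in mESC. It was 2.78, 2.55 and 2.61 in the mESC clones. It was -0.04, -0.07, 0.12 and -0.09 in OE + EpEX clones 1 to 4, -0.10, -1.01, -0.18 and -0.36 in OSKM, and 0.04, -0.42, -1.23 and 0.65 in KE + EpEX. No iPSC clone reached the mESC range. The log2 difference from mESC was -2.66 ± 0.31 (SE; limma adjusted p = 4.18e-05) in OE + EpEX, -2.89 ± 0.31 (adjusted p = 1.81e-05) in KE + EpEX and -3.06 ± 0.31 (adjusted p = 1.09e-05) in OSKM. With the 3 MEF arrays in the fit these differences kept their size but not the call (adjusted p = 0.178, 0.131 and 0.105), and in that fit MEF sample 1 lay 7.0 below samples 2 and 3.

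Fgfrl1 was also higher in mESCs. It was 0.96, 0.61 and 0.96 in the mESC clones and -0.42 to 0.06 in the 12 iPSC clones, so that the groups did not overlap. The difference was -1.07 ± 0.12 in OSKM (adjusted p = 3.03e-05), which was called, and -0.93 ± 0.12 (adjusted p = 0.000119) in OE + EpEX and -0.94 ± 0.12 (adjusted p = 9.03e-05) in KE + EpEX, which passed the adjusted p but fell short of 1 log2 unit unless mESC clone 2 was left out (-1.04 and -1.06). With MEFs in the fit the OSKM call was lost (adjusted p = 0.280).

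Igfbp4, which binds IGFs and limits their action, was 1.78, -0.14 and 1.68 in the mESC clones at its leading probe set. It was -0.83, -0.02, 0.01 and -0.67 in KE + EpEX, -0.20, -0.25, 0.09 and -0.20 in OSKM, and -0.01, -0.43, 0.01 and 0.87 in OE + EpEX. The iPSC clones thus lay near mESC clone 2 and below clones 1 and 3. The difference was -1.48 ± 0.39 in KE + EpEX (adjusted p = 0.0157) and -1.25 ± 0.39 in OSKM (adjusted p = 0.0390), both called, and -0.996 ± 0.39 in OE + EpEX (adjusted p = 0.108), which missed the call with all clones but passed without mESC clone 2 (-1.62, adjusted p = 0.00272). The KE + EpEX call was lost without mESC clone 1 (adjusted p = 0.10) or clone 3 (0.0941). The OSKM call was lost without any OSKM clone (adjusted p = 0.0574 to 0.0851) and without mESC clone 1 (0.200) or clone 3 (0.191). With MEFs in the fit neither call stood (adjusted p = 0.264 and 0.370). The other 2 probe sets of Igfbp4 were not called against mESC in any iPSC group. They differed by -0.65 and -0.66 in KE + EpEX (limma adjusted p = 0.0369 and 0.0190). In OSKM they differed by -0.61 and -0.53 (adjusted p = 0.0521 and 0.0586), and in OE + EpEX by -0.41 and -0.67 (adjusted p = 0.203 and 0.0209).

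Fgf7 was the single called member that was higher in iPSCs. One of its 2 probe sets was -0.33, -1.04 and -0.78 in the mESC clones and 0.29, 0.00, 0.52 and 0.66 in OE + EpEX, a difference of 1.09 ± 0.26 (adjusted p = 0.0114). Without OE + EpEX clone 4 (0.99, adjusted p = 0.0343) or mESC clone 2 (0.92, adjusted p = 0.0569) it was not called, nor with MEFs in the fit (adjusted p = 0.0557). In KE + EpEX it was 0.94 ± 0.26 (adjusted p = 0.0222), under the limit of size. The leading probe set of Fgf7 was not called, at 1.15 ± 0.51 in OE + EpEX (limma adjusted p = 0.154) and 0.50 ± 0.51 in KE + EpEX (adjusted p = 0.606). C1s, a protease of the first complement component, passed the adjusted p without reaching 1 log2 unit in OE + EpEX (0.94, adjusted p = 0.0132) and KE + EpEX (0.91, adjusted p = 0.0131).

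**Figure D3:**
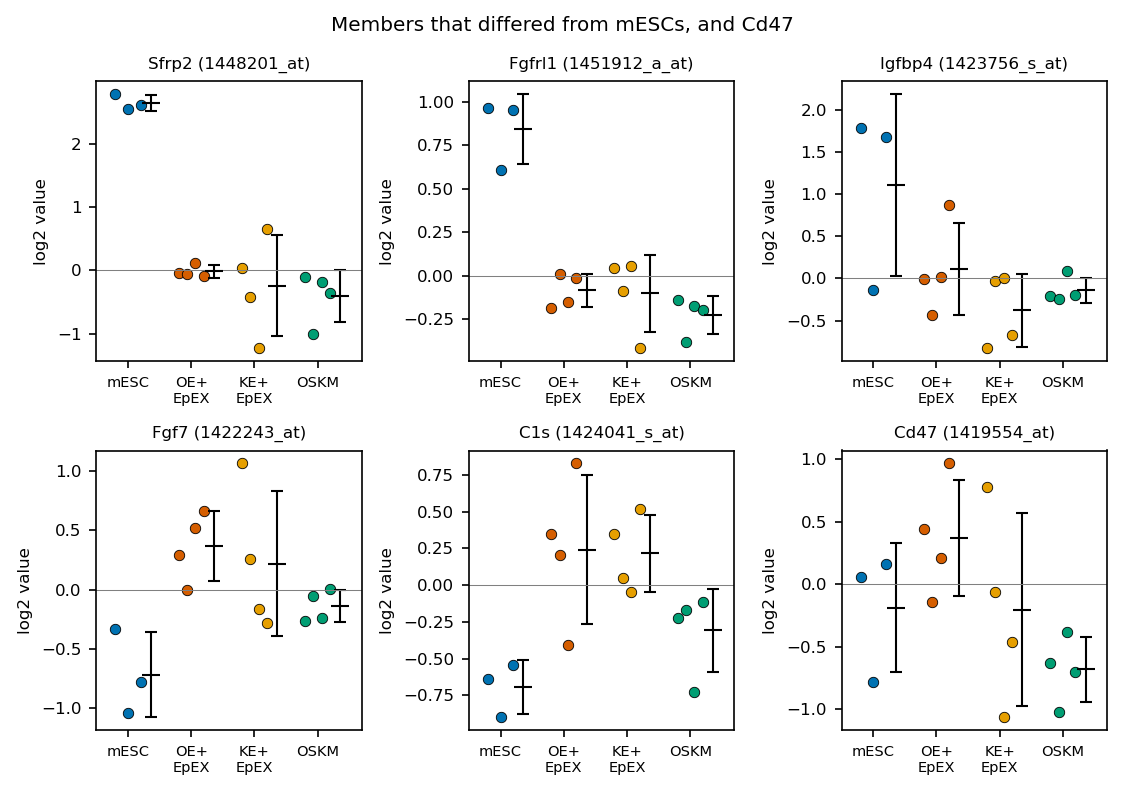
Log2 values by clone (points), with the mean and SD of each group (bars), for 6 probe sets in mESC (n = 3) and the 3 iPSC groups (n = 4 each). Sfrp2 and Fgfrl1 separate mESCs from all iPSC clones, whereas in Igfbp4 mESC clone 2 lies at -0.14, among the iPSC clones.

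The 3 highest differences from mESC were those of Osmr, Cxcl1 and Cxcl12 in OE + EpEX and of Osmr, Ptx3 and Cxcl12 in KE + EpEX, and none of them was called. Osmr was -0.78, -1.10 and -0.63 in mESC, 0.48, 0.36, 0.53 and 2.19 in OE + EpEX, 2.86, 1.87, -1.16 and -1.02 in KE + EpEX, and -0.36, -1.01, -1.07 and -0.48 in OSKM. All 4 OE + EpEX clones lay above mESC, whereas the KE + EpEX clones fell on both sides of it. The difference was 1.73 ± 0.77 in OE + EpEX (adjusted p = 0.159) and 1.47 ± 0.77 in KE + EpEX (adjusted p = 0.241).

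Ptx3 had the same order among the KE + EpEX clones. It was 3.0, 2.20, -0.27 and -0.16 in KE + EpEX, 0.23, 0.00, 0.51 and 2.53 in OE + EpEX, and -0.48 to 0.00 in the mESC and OSKM clones. Cxcl5 was 3.33, 0.96, -0.19 and -0.53 in KE + EpEX, 0.13, 0.04, 1.43 and 1.94 in OE + EpEX, and -0.25 to -0.04 in mESC and OSKM. Cxcl1 was 2.38, 0.90, -0.30 and -0.83 in KE + EpEX and 1.00, 0.16, 0.56 and 2.11 in OE + EpEX. The difference of Cxcl1 from mESC in OE + EpEX was 1.58 ± 0.58 (adjusted p = 0.0856), and that of Ptx3 in KE + EpEX 1.37 ± 0.70 (adjusted p = 0.224). The other probe set of Cxcl1 differed from mESC by 0.58 in OE + EpEX (limma adjusted p = 0.242). Cxcl12 was 2.54, 1.65, -1.47 and -0.39 in KE + EpEX at its second probe set, and without KE + EpEX clone 3 its difference from mESC passed (1.89, adjusted p = 0.0322), against 1.21 (adjusted p = 0.292) with all clones. The leading probe set of Cxcl12 differed from mESC by 0.51 in KE + EpEX (adjusted p = 0.569) and 0.58 in OE + EpEX (adjusted p = 0.476).

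In OSKM clones the highest differences from mESC were in Il1rl1 and Nrp1. Il1rl1 was 0.55, 0.05, 0.07 and -0.05 in OSKM and -0.83, -1.13 and -0.53 in mESC, a difference of 0.99 ± 0.39 (adjusted p = 0.108). Nrp1 differed by 0.97 ± 0.51 (adjusted p = 0.235) and, at its second probe set, by 0.95 ± 0.48 (adjusted p = 0.218), but at the third by 0.25 ± 0.42 (adjusted p = 0.775). The groups did not overlap in Il1rl1 and in the first 2 probe sets of Nrp1, whereas at the third mESC clone 3 (-0.19) lay above OSKM clone 1 (-0.24), and none of these was called. Smaller differences passed the adjusted p alone for Gbp6 (0.43, adjusted p = 0.0129) and for 1 probe set of Cd47 (-0.90, adjusted p = 0.00883). So did 1 probe set of Gas1, a growth arrest gene (-0.87, adjusted p = 0.0411), but not its leading one (-0.43, limma adjusted p = 0.128).

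Not every gene that is high in MEFs was high in these clones. Cxcl15 stayed between -0.17 and 0.24 in all pluripotent arrays at its leading probe set, Dkk2 between -0.28 and 0.47, and Sema3d between -0.13 and 0.27, and in each of them KE + EpEX clone 1 held the top value.

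**Figure D4:**
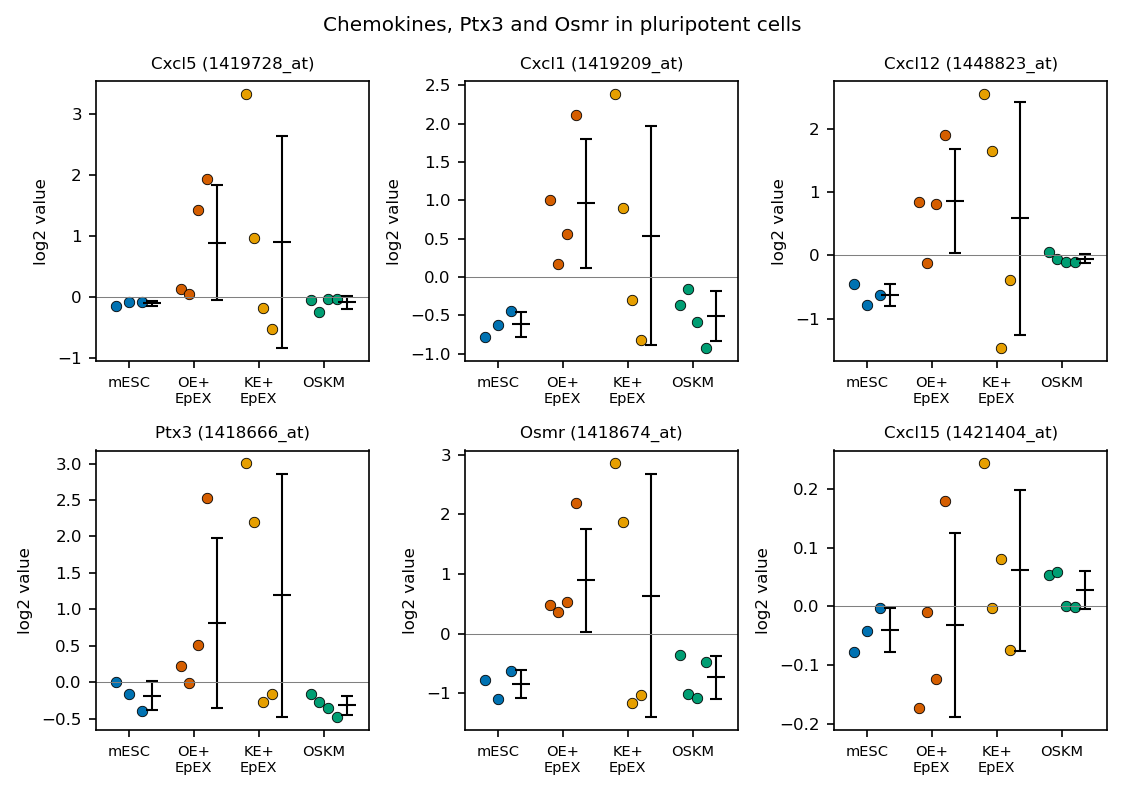
Log2 values by clone (points, in clone order), with the mean and SD of each group (bars), for Cxcl5, Cxcl1, Cxcl12, Ptx3, Osmr and Cxcl15. KE + EpEX clones 1 and 2 and OE + EpEX clone 4 lie above the mESC and OSKM clones in the first 5 genes, whereas in Cxcl15 all 15 arrays lie within -0.17 to 0.24.

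KE + EpEX clone 1 held the highest value of the 15 arrays for 39 of 69 members, and OE + EpEX clone 4 for 9, whereas KE + EpEX clone 3 held the lowest for 18. At least 1 log2 unit was reached by 16 members in KE + EpEX clone 1, 12 in OE + EpEX clone 4 and 3 in KE + EpEX clone 2, by 1 or 2 in each mESC clone, and by 0 in every OSKM clone. The median over members was 0.47 in KE + EpEX clone 1, 0.21 in OE + EpEX clone 4, -0.26 in KE + EpEX clone 3 and -0.13 to -0.10 in OSKM. Over the other probe sets of the list it was, in the same order, 0.53, 0.37, -0.25 and -0.15 to -0.08. The shift in these arrays was therefore not particular to the members. How often each array was highest or lowest over all probe sets was not counted.

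Most fibroblast markers were also highest in these clones, but not all. Through the authors' lists, probe sets were named for 10 of the 16 markers, with 14 probe sets that are not members. Their gap to MEFs was fixed by that source. Their median was 1.64 in KE + EpEX clone 1, 0.88 in OE + EpEX clone 4 and 0.62 in KE + EpEX clone 2, against -0.55 and -0.70 in KE + EpEX clones 3 and 4 and -0.53 to -0.47 in mESC. Their summed level, with each probe set at 1 where it equals its own median, was 8.35 to 45.6 in KE + EpEX, 12.4 to 30.4 in OE + EpEX, 11.4 to 13.4 in OSKM, 10.3 to 12.3 in mESC and 502 to 1599 in MEFs. None can be called absent, since the values are centred. Of the 14 probe sets, 11 were highest in KE + EpEX clone 1 and 2 in OE + EpEX clone 4. Col3a1 was 3.01 in KE + EpEX clone 1 and 1.58 in clone 2, but Pdgfra was -0.55 and -0.62 and Twist1 0.16 and -0.60 in the same clones. Pdgfra was lower than in mESC in KE + EpEX (-1.10 ± 0.28, limma adjusted p = 0.0120) and in OSKM (-1.74 ± 0.28, adjusted p = 0.00048). Postn was higher in OSKM than in mESC (2.19 ± 0.69, adjusted p = 0.0410). Pdgfra was also higher in OE + EpEX than in OSKM (1.13 ± 0.26, adjusted p = 0.0461). No other marker probe set was called. The markers' median difference from mESC was 0.77 for OE + EpEX clones, 0.66 for KE + EpEX clones and 0.39 for OSKM clones. The cells were plated with feeder cells, which are fibroblasts too. The part of feeder cells or of incompletely reprogrammed cells in the members' values was not tested. The macrophage, muscle and glial marker lists had no named probe set, the endothelial list had 1 and the epithelial list had 2.

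**Figure D5:**
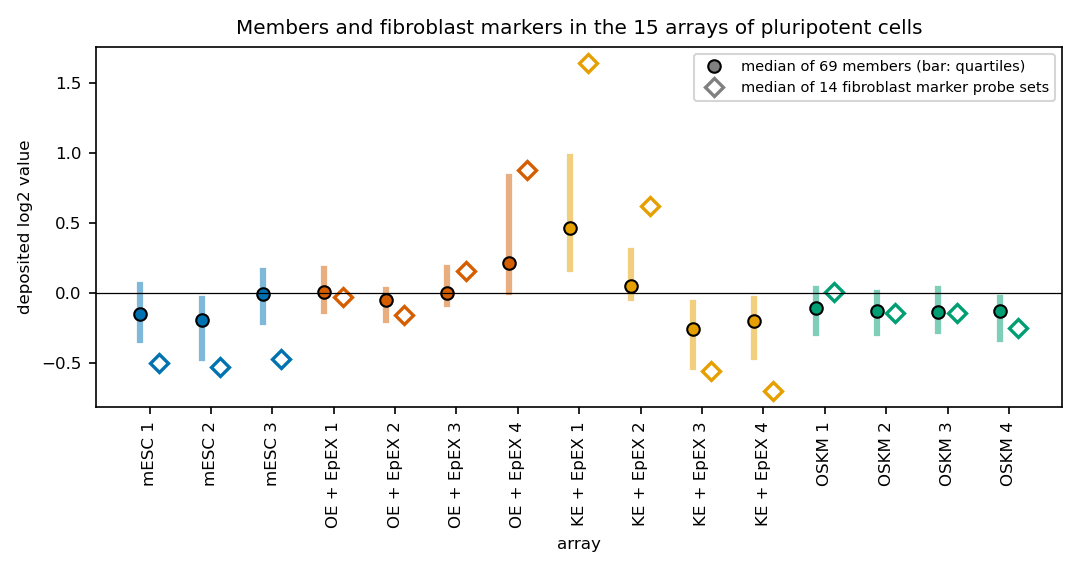
Median log2 value of the 69 members (circles, with bars from the lower to the upper quartile) and of 14 fibroblast marker probe sets (diamonds) in each of the 15 pluripotent arrays. Both are highest in KE + EpEX clone 1 (0.47 and 1.64) and OE + EpEX clone 4 (0.21 and 0.88).

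Among the iPSC groups no member was called. The counts were 0 of 69 in OE + EpEX against OSKM (0.0977% of all probe sets called, 1.23% with the adjusted p alone), 0 in KE + EpEX against OSKM (0.00222% of all) and 0 in OE + EpEX against KE + EpEX (0% of all). At an unadjusted p under 0.05 the members numbered 14 (20.3%, against 16.5% of all probe sets), 5 (7.25% against 12%) and 2 (2.9% against 8.27%). The 95% interval of a member's difference reached a median of 0.43 log2 units to either side, from 0.18 up to 1.52 for Osmr. The median difference was 0.17 in OE + EpEX and 0.16 in KE + EpEX against OSKM, and 0.00 in KE + EpEX without clone 1.

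Cd47 came nearest to a call. Its leading probe set was 0.44, -0.14, 0.21 and 0.97 in OE + EpEX and -0.63, -1.02, -0.38 and -0.70 in OSKM, so that the groups did not overlap. Its 3 probe sets differed by 1.05 ± 0.33, 1.06 ± 0.28 and 0.77 ± 0.20 between OE + EpEX and OSKM (limma adjusted p = 0.123, 0.0765 and 0.0702). All 3 were called after quantile normalization (adjusted p = 0.00958 to 0.0272), which raised the calls over all probe sets in this comparison from 44 to 1227. Tgfbr3, the TGF-β co-receptor, differed by 0.79 ± 0.25 (adjusted p = 0.128) between OE + EpEX and OSKM. For Il13ra1, 1 of its 3 probe sets lay above OSKM by 0.32 ± 0.10 (adjusted p = 0.139) for OE + EpEX clones. For KE + EpEX clones it lay above OSKM by 0.34 ± 0.10 (adjusted p = 0.202). The leading probe set of Il13ra1 differed from OSKM by -0.04 and -0.02, in the same order, and the third by 0.11 and -0.185.

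Other genes of the same pathways could be read for only 7 of 79 listed symbols, of which 3 are members. The other 4 were Id3, Cyr61, Fzd1 and Fzd2, with 5 probe sets, all from the list of genes lower than MEFs. In OE + EpEX against mESC 3 of the 5 probe sets, of 2 genes, were called higher and 0 lower (3.43% of all probe sets called), in OSKM against mESC 1 and 0 (3.73% of all), and in KE + EpEX against mESC 0 and 0 (3.89% of all). Id3, a target of BMP signalling, was 1.26 ± 0.39 higher in OE + EpEX (adjusted p = 0.0428) and 1.79 ± 0.39 higher in OSKM (adjusted p = 0.00462) than in mESC. Both probe sets of Cyr61, a matricellular gene now named Ccn1, were higher in OE + EpEX, by 1.18 ± 0.20 (adjusted p = 0.000881) and 1.17 ± 0.30 (adjusted p = 0.0166). In KE + EpEX 1 of them passed the adjusted p under the limit of size (0.71, adjusted p = 0.0215).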

How the data were processed

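Each RNA sample was measured on its own Affymetrix mouse array. Per the methods the authors analyzed the scans in GeneSpring GX, and the submitters' processing notes name MAS5 and RMA without saying how each was used. The authors deposited log2 values, and each probe set had a median of 0 over the 18 arrays (to within 5.0e-07). Signal over background is therefore unknown, and the number of arrays limits the precision. The authors' lists also hold fold ratios to the MEF mean, which were not used. The labels name Trizol and biotin where the paper names another kit and dye. The members and gene lists were chosen with earlier results of these data known.

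Groups came from the sample titles. The 64 control probe sets were left out. Group means of the 15 pluripotent arrays were fitted in limma 3.58.1 (R 4.3.3; lmFit, eBayes) with Benjamini-Hochberg adjustment over all probe sets in each of 6 comparisons. MEF arrays stayed out of the fit because the list was chosen on them and MEF sample 1 stands apart. The fitting script was first tested on simulated data. Members named with values were the 2 highest and the lowest of each role group by MEF difference, every called member, the 3 highest and 3 lowest differences from mESC, members with an unadjusted p under 0.01 among iPSC groups, the 5 highest and 5 lowest gaps of MEF sample 1, and genes with several probe sets. Others named (the rest of each role group, promoters, and Cxcl5, Cxcl15, Dkk2 and Sema3d in pluripotent cells) were chosen after their values were seen. Symbols were matched to RefSeq, where 42 of 44 were current. Python 3.11.15 with pandas 2.3.3 was used elsewhere.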

Additional observations from a re-analysis of the deposited data

Results flagged for a closer look

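Each gene's leading probe set, the members' median and the fibroblast markers' median were examined in the 3 groups of 4 clones for a clone far from the other 3. Of 138 groups 6 were flagged, and chance flags about 1 in 20. In OE + EpEX, Osmr was 2.19 in clone 4 and 0.36 to 0.53 in the others. The other 5 were in OSKM, where the clones lay close together. Fstl1 was -0.52 in clone 1 against -0.74 to -0.71, and Cxcl5 was -0.25 in clone 2 against -0.05 to -0.04. In clone 3, Il1rn was 0.45 against -0.03 to 0.03, Igfbp4 was 0.085 against -0.25 to -0.20, and Tnfsf11 was -0.27 against 0.05 to 0.06.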

How the results depend on the processing

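The counts of called members are small and moved with most settings. With all 18 arrays in the fit they were 0, 0 and 0 in OE + EpEX, KE + EpEX and OSKM against mESC. With only the compared groups they were 7 in OE + EpEX and 1 in KE + EpEX against mESC, and 4 in OE + EpEX against OSKM. With the adjusted p alone they were 8, 8 and 6 against mESC. An adjusted p under 0.01 left 1 in OE + EpEX and 1 in KE + EpEX. The methods' t-test without adjustment or size limit gave 19, 7 and 23 against mESC (22.6%, 20.6% and 31.1% of all probe sets), 16 and 3 in OE + EpEX and KE + EpEX against OSKM (18.3% and 11.1% of all), and 1 in OE + EpEX against KE + EpEX (6.04% of all), and after Benjamini-Hochberg adjustment with the size limit it gave 1 in OE + EpEX and 1 in KE + EpEX against mESC. Quantile normalization gave 4 in OE + EpEX against OSKM, and 1 probe set per gene left 1 in OE + EpEX against mESC. Leaving out 1 clone gave 1 to 4 in OE + EpEX against mESC (1 without OE + EpEX clone 4, 4 without clone 3), 1 to 7 in KE + EpEX against mESC (1 without mESC clone 3, 5 without KE + EpEX clone 3, 7 without clone 4), 2 to 5 in OSKM against mESC (5 without mESC clone 2) and 0 to 1 in KE + EpEX against OSKM (1 without KE + EpEX clone 3). Over all probe sets, counts of calls moved by over 1.5 times with the adjusted t-test (714 and 767 in OE + EpEX and KE + EpEX against mESC, from 1547 and 1754), with quantile normalization in OSKM against mESC (2740, from 1678), and in OE + EpEX against OSKM (44, with 20 with all 18 arrays, 18 with the replicate block, 105 with the compared groups alone, 75 in the subset of probe sets with the larger spread, 23 with the adjusted t-test, 1227 with quantile normalization and 3 to 133 without 1 clone). In KE + EpEX against OSKM they went from 1 to 548 with quantile normalization, 247 without KE + EpEX clone 3, 13 with the compared groups alone and 8 in the larger-spread subset, and to 0 with each of the other clones left out in turn, with all 18 arrays, with the adjusted t-test or with the replicate block. In OE + EpEX against KE + EpEX they went from 0 to 26 when OE + EpEX clone 3 was left out, 31 for its clone 4 and 1 for KE + EpEX clone 1. The cause was not tested.

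Same-numbered arrays did not deviate together (correlations of -0.36 to 0.25), so the numbers do not pair the samples. With the replicate number as a block (replicate block) the counts stayed at 2, 2 and 3 against mESC and 0 among iPSC groups, and no call of a named member changed.

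Quantile normalization, which gives the wider MEF distributions the shape of the others, gave a median MEF difference of 1.77 against mESC, 1.54 against OE + EpEX, 1.58 against KE + EpEX and 2.09 against OSKM, and left 0 of 69 members at least 10-fold below MEFs in all arrays. It also ended the calls of Igfbp4 in KE + EpEX (adjusted p = 0.0510) and OSKM (adjusted p = 0.10) against mESC. Counted per gene the members at least 10-fold below MEFs were 44. Leaving out 1 MEF sample gave 47 to 68 members. No difference of a named member turned its sign.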
